A study of Mus musculus with 6 samples.

Results

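Egfr, Dusp4, Dusp6, Spry1, Spry2, Spry4, Spred1, Spred2, Etv4 and Etv5 were examined as transcriptional readouts of signalling through RAS and the MAP kinases in liver tumors. They were chosen by symbol, with earlier results of these data known. All 10 were found among the 30236 rows of the expression table and were among the 22677 genes tested. The table holds RNA-seq of 6 liver tumors, 3 from WT and 3 from Top1mt -/- (Top1mt-KO) male C57BL/6 mice, all given diethylnitrosamine on day 14 after birth and carbon tetrachloride for 14 weeks from 8 weeks of age. Diethylnitrosamine is a mutagen and carbon tetrachloride a liver toxin, and the tumors were collected at 22 weeks of age. WT and Top1mt-KO mice were littermates from heterozygous breeding, Top1mt-KO being a germline line, and no untreated or tumor-free liver was analysed here. Each library was made from whole tumor tissue, so fewer cells of a type and less RNA per cell cannot be told apart. Whether the libraries of a genotype came from separate mice is stated only as independent tumors, so the p-values measure the spread between these samples.

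Growth factor receptors such as EGFR load RAS with GTP, and RAS then activates RAF, MEK and ERK in turn. ERK raises the transcription of its own brakes, among them the DUSP phosphatases that strip phosphate from ERK and the Sprouty and SPRED proteins that act on RAS and RAF, and of the ETS factors ETV4 and ETV5. These transcripts are used as a readout of the pathway, and genes of the pathway are often mutated in mouse liver tumors made with diethylnitrosamine. Mutations cannot be read from the values used here.

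The regions just ahead of the RefSeq transcription starts are shown for 3 members that differ in what they hold. Dusp6 is shown as the most strongly expressed of the feedback genes, Egfr as the member whose values went apart from the others, and Spred2 as the member with a short CRE site. They are RefSeq sequences of 250 bases on the plus strand of GRCm38.p6, at chr10:99262981-99263230, chr11:16751953-16752202 and chr11:19924192-19924441 for Dusp6, Egfr and Spred2. In the GENCODE annotation Spred2 starts at chr11:19924375, inside the region shown, and the marked site lies after that start. Capitals mark a motif match.
Dusp6: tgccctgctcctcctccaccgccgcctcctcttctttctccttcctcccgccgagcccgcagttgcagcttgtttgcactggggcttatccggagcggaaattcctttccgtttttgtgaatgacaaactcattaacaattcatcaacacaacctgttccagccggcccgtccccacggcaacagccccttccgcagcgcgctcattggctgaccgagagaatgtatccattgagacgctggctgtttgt
Egfr: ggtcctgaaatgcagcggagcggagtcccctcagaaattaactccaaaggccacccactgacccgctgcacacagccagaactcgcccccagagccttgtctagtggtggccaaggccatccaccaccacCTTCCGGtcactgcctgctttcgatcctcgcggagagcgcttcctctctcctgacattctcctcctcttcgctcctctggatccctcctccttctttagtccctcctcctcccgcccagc
Spred2: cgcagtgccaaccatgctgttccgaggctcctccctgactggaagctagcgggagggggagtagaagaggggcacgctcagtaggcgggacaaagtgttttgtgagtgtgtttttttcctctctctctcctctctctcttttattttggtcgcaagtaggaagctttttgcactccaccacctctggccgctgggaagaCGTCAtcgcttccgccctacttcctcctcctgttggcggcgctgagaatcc

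Windows from 250 bases before to 50 bases after the start were given for 7 of the 10 members, 8 windows in all because Etv5 has a pair. They were searched on both strands for CCGGAAG, one strict form of the site bound by ETS factors. Other forms of that site were not searched. CCGGAAG was found in 1 of the 8, that of Egfr, and in 8.86% of all 32851 windows of this length. TGANTCA, the AP-1 site, was in 0 of the 8 and in 7.81% of all windows. TGACG, a short site bound by CREB family factors, was in 1 of the 8, that of Spred2, and in 20.8% of all windows. The CArG box bound by serum response factor was in 0 of the 8 and in 1.63% of all windows. The motifs do not overlap one another in these windows, and the matches describe letters in a short window only.

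Libraries are named below by their labels. In every list of values below, replicates 1, 2 and 3 stand in that order, on the authors' log2 scale. Top1mt was 7.71, 5.99 and 8.01 under the WT label and 5.58, 6.41 and 6.32 under the KO label. Against its label, the library called WT replicate 2 had less Top1mt than KO replicates 2 and 3. The log2 fold change of Top1mt was -1.13 (standard error 0.52). It was -1.76 without WT replicate 2 and -0.75 without WT replicate 3, the extremes over the libraries left out. In KO replicate 1 a single transcript, Gm42418, took 17.7% of the values summed on the linear scale, against at most 0.387% in WT. Results are therefore given with and without these libraries, and each direction rests on the labels as deposited. Hepatocyte markers were strong in every library, with Alb at 20.3 to 21.1.

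The 9 members other than Egfr had lower means in the libraries labelled Top1mt-KO than in those labelled WT, and Egfr had a higher one. The median log2 fold change of the 10 members was -0.59, where that of all genes tested was -0.015 and 52.3% of genes had a lower mean in KO. With one library left out the members' median ran from -0.89 without KO replicate 1 to -0.37 without KO replicate 2, and it was -0.38 without KO replicate 3. No single member passed. By limma with Benjamini-Hochberg adjustment over all genes tested, the members past an adjusted p of 0.05 numbered 0 (0% of all genes tested), and the adjusted p was 0.999 for each of the 10. At an unadjusted p under 0.05 there was 1 member, Etv4, where 4.34% of genes tested stood there, 2.56% with the lower level in KO. With a single library left out, Etv4 had an unadjusted p under 0.05 only without WT replicate 1 or without KO replicate 1. In the table as a whole 0 genes passed, and 985 had an unadjusted p under 0.05.

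**Figure D1:**
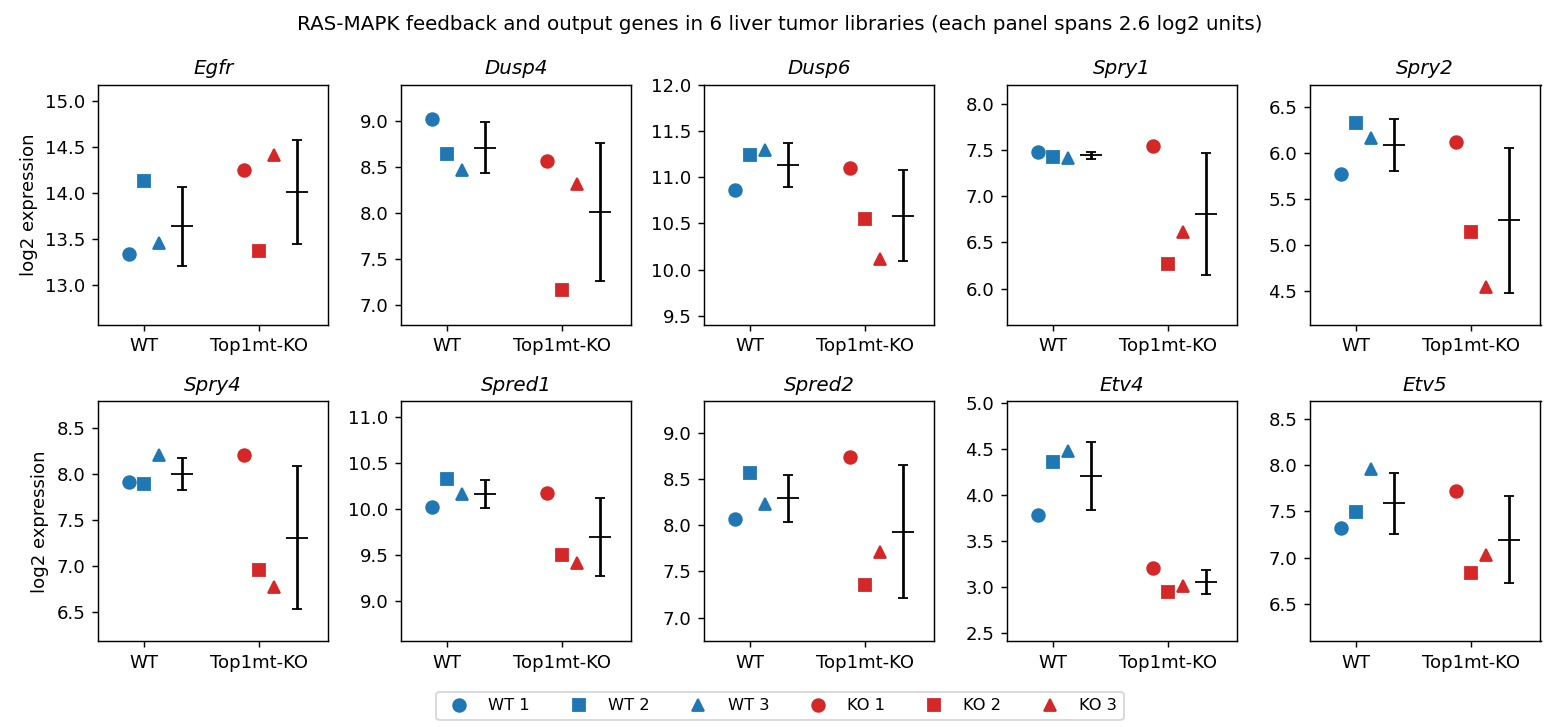
Log2 expression (y axis) of the 10 members in the 3 libraries labelled WT (blue) and the 3 labelled Top1mt-KO (red), with a marker shape for each replicate and black bars for the mean ± SD. KO replicates 2 and 3 lie below every WT library in 9 of the 10 panels, and KO replicate 1 does so for Etv4 alone.

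The ETS factors are taken first. Etv4, a transcription factor of the PEA3 group that is barely expressed in normal liver, was 3.78, 4.36 and 4.48 in WT against 3.20, 2.95 and 3.01 in KO. All 3 KO libraries lay below all 3 WT libraries, and it was the 1 member of 10 whose groups did not overlap with a lower level in KO, where 4.33% of all genes tested did the same. The log2 fold change was -1.15 (standard error 0.42), with a WT mean of 4.21 ± 0.37 (SD, n = 3) against a KO mean of 3.05 ± 0.13 (SD, n = 3). A two-sided exact permutation test gave p = 0.1, which is the lowest value open to 3 against 3. The log2 fold change of Etv4 ran from -1.37 without WT replicate 1 to -1.02 without WT replicate 3. It was -1.08 (standard error 0.49) without WT replicate 2. The unadjusted p of Etv4 by limma was 0.026 with all libraries, 0.022 without WT replicate 1 and 0.040 without KO replicate 1. It was 0.067 without WT replicate 2, 0.078 without WT replicate 3, 0.068 without KO replicate 2 and 0.058 without KO replicate 3. Etv4 was the weakest member. Etv5, its close relative, was 7.31, 7.49 and 7.96 in WT, compared with 7.73, 6.83 and 7.03 in KO. KO replicate 1 lay inside the WT range and the other KO libraries below it. Its log2 fold change was -0.39 (standard error 0.28), with -0.66 without KO replicate 1 and -0.21 without KO replicate 2.

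The Sprouty genes encode inhibitors that are induced by the receptors they restrain. Spry1 was 7.49, 7.42 and 7.42 in WT, the tightest group of any member with an SD of 0.036, and 7.55, 6.27 and 6.61 in KO. KO replicate 1 was thus the highest of the 6 libraries and the other KO libraries were the lowest. The log2 fold change of Spry1 was -0.63 (standard error 0.32), and -1.01 (standard error 0.20) without KO replicate 1. That fit leaves KO replicates 2 and 3 alone in their group, as do those without KO replicate 1 below. Without KO replicate 2 the difference was -0.36 (standard error 0.30). In the annotation 710 exonic bases of Spry1 are shared with a gene on the opposite strand, Gm42922, and whether the counting used strand is not given in the sources used here.
Spry2 was 5.77, 6.33 and 6.16 in WT against 6.12, 5.14 and 4.55 in KO. KO replicate 1 here lay within the WT range. The log2 fold change of Spry2 was -0.82 (standard error 0.43), and -1.24 (standard error 0.35) without that library. Without KO replicate 3 it was -0.46 (standard error 0.40). Spry4 was 7.91, 7.89 and 8.20 in WT, compared with 8.20, 6.96 and 6.77 in KO, with KO replicate 1 just above the WT range. Its difference was -0.69 (standard error 0.36) with all libraries and -1.14 (standard error 0.19) without KO replicate 1. For Spry4 without KO replicate 3 it was -0.42 (standard error 0.37).

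SPRED1 and SPRED2 bring the RAS GTPase activating protein neurofibromin to the membrane. Spred1 was 10.02, 10.32 and 10.17 in WT against 10.18, 9.50 and 9.41 in KO, a log2 fold change of -0.47 (standard error 0.22). KO replicate 1 again lay within the WT range. Spred2 was 8.07, 8.57 and 8.24 in WT, compared with 8.74, 7.35 and 7.71 in KO. Its highest and its lowest library both carried the KO label, and the log2 fold change was -0.36 (standard error 0.34). Without KO replicate 1 the differences were -0.71 (standard error 0.14) for Spred1 and -0.77 (standard error 0.21) for Spred2. Without KO replicate 2 that of Spred2 was -0.072 (standard error 0.32), and it was -0.37 (standard error 0.24) for Spred1.

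The phosphatases came next. DUSP6 is cytoplasmic and acts on ERK, and DUSP4 is nuclear. Dusp6 was 10.86, 11.24 and 11.29 in WT against 11.10, 10.54 and 10.11 in KO, a log2 fold change of -0.55 (standard error 0.25). The groups overlapped through KO replicate 1 alone, which lay above WT replicate 1, and without it the difference was -0.81 (standard error 0.20). Without KO replicate 3 it was -0.31 (standard error 0.23). Dusp4 was 9.01, 8.64 and 8.47 in WT, compared with 8.56, 7.16 and 8.31 in KO. KO replicate 2 stood far below the rest, and the log2 fold change of -0.70 (standard error 0.35) was -0.27 without it. Without KO replicate 1 it was -0.97.

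Egfr, the receptor at the head of the pathway, had another order of libraries. Its values were 13.33, 14.12 and 13.46 in WT against 14.25, 13.37 and 14.41 in KO. WT replicate 2 and KO replicates 1 and 3 were high, and the other 3 libraries were low, so that each genotype held both levels. The log2 fold change was 0.37 (standard error 0.34), with a WT mean of 13.64 ± 0.43 (SD, n = 3) against a KO mean of 14.01 ± 0.56 (SD, n = 3), and p was 0.3 in the exact permutation test. It ran from 0.17 without KO replicate 3 to 0.69 without KO replicate 2. Another gene, Egfros, lies on the opposite strand of Egfr and shares 0 exonic bases with it.

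**Figure D2:**
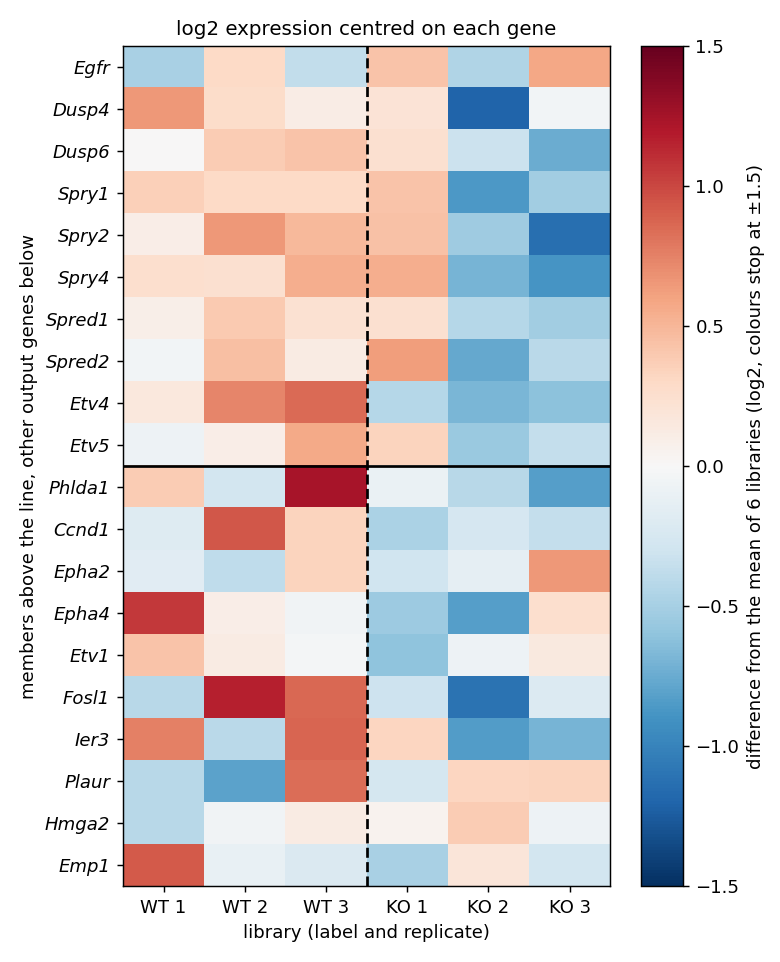
Difference of each library from the gene's mean over the 6 libraries (colour, log2) for the 10 members above the line and 10 other genes whose transcript commonly follows ERK below it. The rows Dusp4 to Etv5 are blue in KO 2 and KO 3, except that Dusp4 in KO 3 is nearly white, at 8.31 against a mean of 8.36. Among the members KO 1 is blue for Etv4 only. Below the line KO 2 and KO 3 are under every WT library only for Phlda1, Ccnd1 and Ier3.

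The KO libraries were thus not alike in these genes. KO replicates 2 and 3 were both below every WT library in 9 of the 10 members, all but Egfr, where 11.8% of all genes tested did so. KO replicate 1 lay within the WT range in 5 members, above it in 4 (Egfr, Spry1, Spry4 and Spred2) and below it in 1, Etv4. Over all genes tested those shares were 50.7%, 24.8% and 24.5%. The SD was larger in KO than in WT for 9 members, Etv4 being the exception, where 53.6% of genes had the larger SD in KO. The members read one pathway and most of them varied alike over the libraries, so these counts are not independent of one another. Averaged over the 10 members, the centred log2 level of a library was 0.10, 0.38 and 0.33 in WT, compared with 0.31, -0.65 and -0.46 in KO, which places KO replicate 1 among the WT libraries.

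Leaving out KO replicate 1 changed the count of members at an unadjusted p under 0.05 from 1 to 9 of 10, all 9 lower in KO, where 3.16% of genes tested were lower at that level. The smallest unadjusted p was that of Spry4, 0.00067 by limma, but its adjusted p of 0.351 did not pass, and 0 members passed where 0.00441% of genes tested did. Leaving out any other single library gave 0 or 1 members, and leaving out both KO replicate 1 and WT replicate 2 gave 7, where 3.51% of genes were lower at that level. Without both libraries the 9 members still lay below the WT range, but so did 18.3% of genes. The split within KO was noticed after the values were seen, and nothing in the labels sets KO replicate 1 apart from KO replicates 2 and 3. Most members vary together over the libraries, so their counts here restate that split.

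**Figure D3:**
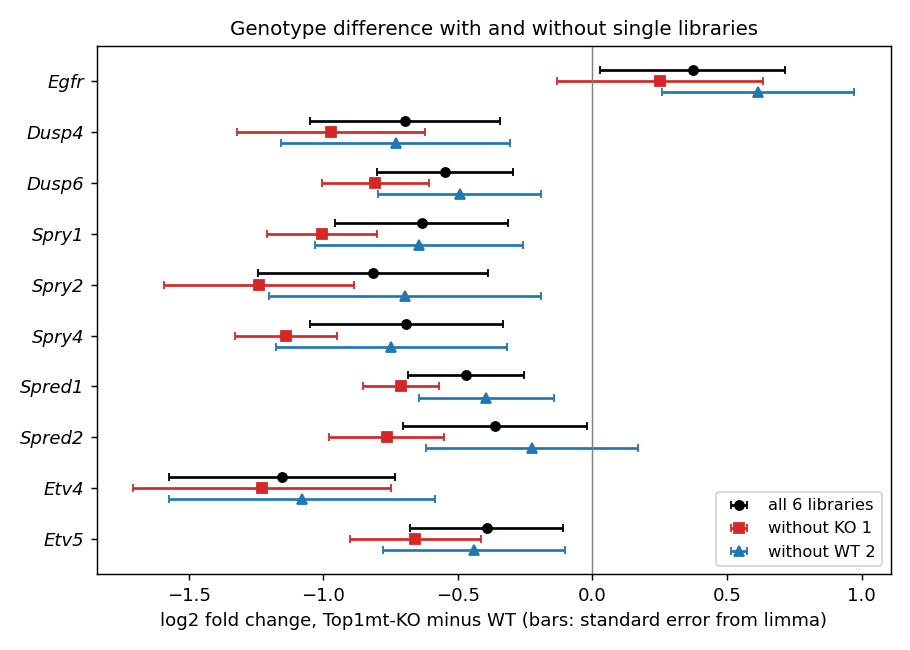
Log2 fold change, Top1mt-KO label minus WT label (x axis), for each member (y axis) with all 6 libraries (black), without KO replicate 1 (red) and without WT replicate 2 (blue), with the standard error from limma as bars. The red points lie farthest below 0 in the 9 members other than Egfr, from -0.66 for Etv5 to -1.24 for Spry2.

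The likeness of members was measured as the root mean square difference between their centred log2 values over the 6 libraries. Of the 45 pairs of members Dusp6 and Spred1 were closest, at 0.14, followed by Spry1 and Spry4 at 0.21. Egfr was in 6 of the 7 pairs that lay farthest apart, up to 0.85 with Etv4. Among all genes tested the nearest to Dusp6 were Wap (0.089), Gls2, a liver glutaminase (0.099), and Fam19a2 (0.10). Those nearest to Spry2 were Bach1, a repressor of heme oxygenase (0.12), Sult6b1 (0.12) and Tceal5 (0.16). Fabp7, a fatty acid binding protein, lay nearest to Egfr (0.077), ahead of Gm8200 (0.10) and Gm24978 (0.12). With 6 libraries many genes follow any given order.

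Levels of different genes were set side by side after dividing by exonic length, as log2 value per kb of annotated exon averaged over the 6 libraries. On that scale Egfr (10.3) was highest, followed by Dusp6 (9.21), Spred1 (7.17), Dusp4 (6.90), Spred2 (5.90), Spry1 (5.59), Spry4 (5.41), Etv5 (5.35), Spry2 (4.62) and Etv4 (2.0). Dusp6 thus exceeded Spred1 by 2.04 ± 0.15 (SD, n = 6) and did so in 6 of 6 libraries. Of the 9 neighbouring pairs in this order, 5 kept their order in every library. For each of these an exact sign-flip permutation test over the 6 libraries gave p = 0.031, the smallest that 6 libraries allow. The adjusted p was 0.056 over the 9 pairs. The pairs and their direction came from the same values, with both genotypes pooled, so the test cannot decide the order. Dividing by length also assumes a log2 scale of counts, and the transform is not named. The other 4 pairs, which join Spred1 to Dusp4 and run from Spred2 through Spry1 and Spry4 to Etv5, changed order in at least 1 library. On the scale without length, the means of the members stood between the percentiles 37.2 and 99.6 of all genes tested, with Etv4 lowest and Egfr highest.

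For the rest of the pathway 68 genes were fixed by symbol, also with earlier results of these data known. Of those tested, 0 passed an adjusted p of 0.05 by limma, and the few with an unadjusted p under 0.05 are named with the values. The core cascade from the adaptors to ERK was the flattest part. The median over its 20 genes was a log2 fold change of 0.039, with 13 higher and 7 lower in KO, and Gab1 had the lowest value (-0.40). Gab1, a docking protein for receptors, was the only one of the 20 with an unadjusted p under 0.05, where 4.34% of genes tested stood. It was lower in KO without overlap, as 4.33% of genes tested were. Hras was 8.59 to 9.05 in WT and 8.90 to 9.19 in KO, and Braf was 9.57 to 9.90 and 9.82 to 10.12, so both overlapped.

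The 15 other brakes tested, which are RAS GTPase activating proteins, phosphatases and receptor inhibitors, had a median of -0.073, with 7 higher and 8 lower in KO. The extremes were Spred3 (0.32) and Dusp5 (-0.73), and 0 of the 15 had an unadjusted p under 0.05. Without KO replicate 1, 7 of the 15 lay below every WT library (Nf1, Rasa3, Dab2ip, Dusp5, Dusp7, Errfi1 and Lrig1), where 11.8% of all genes did, and 0 lay above, where 9.75% did. In the other lists 3 of 20 core genes, 3 of 12 receptors, 1 of 9 ligands and 3 of 10 other output genes lay below. Those above numbered 2, 1, 2 and 0 in the same order. With all 6 libraries Dab2ip was lower in KO without overlap, as 4.33% of all genes tested were. Dusp5, a nuclear ERK phosphatase, was 8.16, 9.56 and 8.67 in WT against 9.43, 7.27 and 7.5 in KO. Errfi1, which inhibits EGFR, was 14.27, 14.41 and 14.10 in WT, compared with 14.44, 13.93 and 13.04 in KO. KO replicate 1 lay within the WT range for Dusp5 and just above it for Errfi1, and KO replicates 2 and 3 lay below it in both. Among the members KO replicate 1 lay within the WT range in 5 and above it in 4.

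The 10 other output genes had a median of -0.56, close to that of the members, with 3 higher and 7 lower in KO. Averaged over these 10, the centred log2 level of a library was 0.19, 0.029 and 0.43 in WT against -0.27, -0.28 and -0.11 in KO. KO replicate 1 thus lay below every WT library here, whereas for the members it lay among them. Fosl1, an AP-1 subunit, had the lowest log2 fold change (-1.08, standard error 0.57) and Plaur the highest (0.26). Ccnd1, which encodes cyclin D1, had an unadjusted p under 0.05 as the only one of the 10, where 4.34% of genes tested had. It was also lower in KO without overlap, as 4.33% of genes tested were. Its values were 10.17, 11.29 and 10.69 in WT against 9.88, 10.11 and 10.003 in KO (log2 fold change -0.72, standard error 0.26). KO replicate 1 was the lowest of the 6 libraries for Ccnd1, as it was not for any member.

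Receptors and ligands held differences in both directions. The 12 other receptors had a median of -0.26, with 3 higher and 9 lower in KO. Fgfr2 was 11.41, 11.63 and 11.12 in WT, compared with 11.66, 9.96 and 9.27 in KO, the largest difference of the receptors (-1.09, standard error 0.53). KO replicate 1 was the highest of the 6 libraries by a small margin, and KO replicates 2 and 3 lay below every WT library. Fgfr3, by contrast, was higher in KO without overlap (0.45, standard error 0.18), as 3.95% of all genes tested were. It was the only receptor with an unadjusted p under 0.05, where 4.34% of genes tested stood. Of the 9 ligands tested 3 were higher and 6 lower, with a median of -0.17, from Nrg4 (-1.18) to Areg (1.63). Areg, amphiregulin, was 1.28, 2.80 and 1.49 in WT against 3.59, 1.34 and 5.54 in KO, and its 3 high libraries were the 3 in which Egfr was high. Btc, betacellulin, which binds EGFR, had the smallest p of the ligands. It was 6.84, 7.27 and 7.05 in WT, compared with 7.78, 8.32 and 8.17 in KO, with no overlap (log2 fold change 1.04 with a standard error of 0.21, and an adjusted p of 0.938 by limma). Egf was also higher in KO without overlap (0.77, standard error 0.39), at a low level of 3.22 to 4.28. Btc, Egf and Ccnd1, the brakes below every WT library, and Hras and Braf were named after their values were seen.

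**Figure D4:**
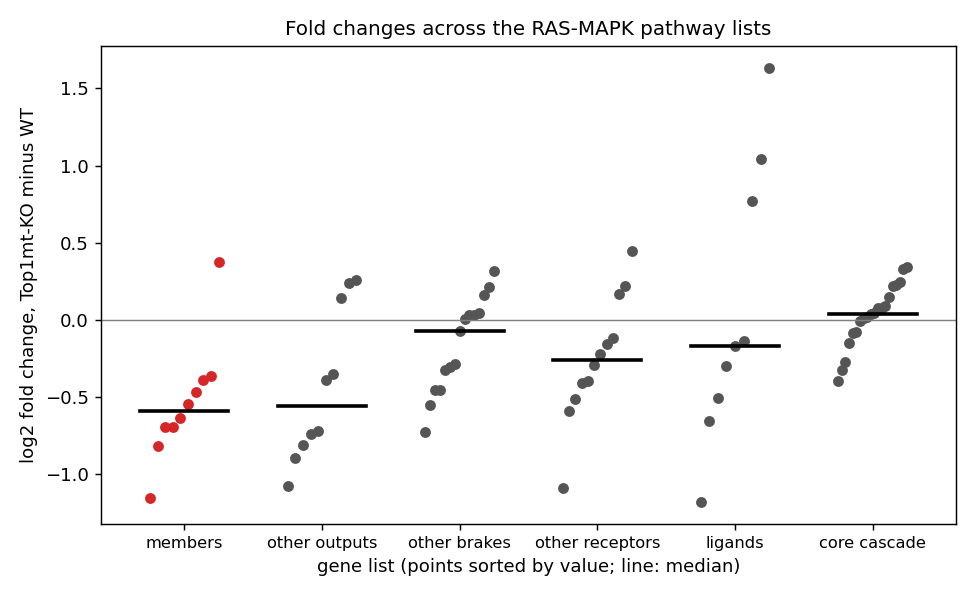
Log2 fold change, Top1mt-KO label minus WT label (y axis), of every tested gene in 6 lists (x axis), with the median of each list as a line. The members (red) and the other outputs lie mostly below 0, with medians of -0.59 and -0.56, while the core cascade is centred near 0, at 0.039. The other receptors and the ligands also lie mostly below 0, with medians of -0.26 and -0.17, and the other brakes have a median of -0.073.

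Markers of other cell types were read beside these values, and all 46 were in the table. Of the 5 bile duct markers 3 were lower and 2 higher in KO, and 0 passed an adjusted p of 0.05 by limma. Krt19 and Epcam were lower in KO without overlap, where 4.33% of all genes tested were, and Krt19 and Krt7 had an unadjusted p under 0.05. The log2 fold changes were -2.68 for Krt19, -2.20 for Krt7, -1.19 for Epcam, 0.15 for Sox9 and 0.045 for Spp1. The mean of the 5 markers' centred values was 0.68, 0.022 and 1.06 in WT against -0.92, -0.16 and -0.68 in KO, without overlap, while their summed log2 level, most of it Spp1, was 11.6 to 12.6 in WT and 11.7 to 12.6 in KO. The 9 stellate cell and fibroblast markers, which share Pdgfrb with the receptors, were lowest in KO replicate 1, with centred means of 1.0, -0.049 and -0.33 in WT, compared with -1.15, 0.57 and -0.045 in KO, and summed levels of 13.2 to 14.7 and 12.3 to 14.3. Of these 9 markers 8 were lower and 1 higher in KO, and 0 were without overlap. Lrat (-0.79) alone had an unadjusted p under 0.05, where 4.34% of genes tested stood. The summed log2 levels of the other lists overlapped between WT and KO, at 12.9 to 13.2 and 12.999 to 13.3 for 8 endothelial markers, 12.6 to 13.8 and 12.5 to 13.1 for 7 macrophage markers, 5.62 to 6.26 and 5.83 to 6.20 for 6 T and NK cell markers, and 6.57 to 6.84 and 6.16 to 7.76 for 4 B cell markers. Within these lists single genes did not always overlap. The endothelial markers Cdh5 (log2 fold change 0.40, the only endothelial marker with an unadjusted p under 0.05) and Pecam1 (0.16) were higher in KO without overlap, where 3.95% of all genes tested were. None of the macrophage or B cell markers was without overlap, and of the T and NK cell markers Cd3e was lower (-1.03) and Cd3g higher (0.90) in KO without overlap. Hepatocyte markers summed to 20.6 to 21.3 in WT and 20.9 to 21.4 in KO, most of it Alb. Of these 7 markers 4 were higher and 3 lower in KO, and Ttr (0.58) was higher without overlap. These single markers, Ttr and Lrat included, were named after their values were seen. No marker was absent, the lowest mean being 2.28. The part of any of these cell types in the values of the members was not tested.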

How the data were processed

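RNA-seq libraries from 3 WT and 3 Top1mt-KO liver tumors were compared, grouped by the sample titles. The deposited table lists log2 values by gene symbol, which the authors had normalized between libraries. Their transform is not named and resembles a regularized log. The paper names Trimmomatic, BWA, featureCounts and DESeq2, whereas the submitters' processing notes list STAR 2.5.1 and GRCm38. Counts and depth cannot be recovered from these values, so no depth or counting interval is given. Columns without a name were set aside.

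The genotype contrast was fitted in R 4.3.3 with limma 3.58.1 (lmFit, eBayes with trend, Benjamini-Hochberg adjustment) on 22677 genes whose mean lay above the lowest 25%, with a threshold of 0.05. Single genes were also compared by exact two-sided permutation over 20 splits, and the procedure was tested on simulated data. Gene positions and exonic lengths came from GENCODE M21 (GRCm38), and promoters from RefSeq (GRCm38.p6). Named genes are the members, Top1mt, the extremes of each pathway list, and the 3 genes nearest to Dusp6, Spry2 and Egfr. Members and lists were chosen with earlier results of these data known. Spry3 was not analysed here. One gene that the naming rule selects is not reported here. The alternatives were other normalizations, filters, no trend, a replicate block and each library left out.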

Additional observations from a re-analysis of the deposited data

How the results depend on the processing

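The count of genes past an adjusted p of 0.05 by limma was 4 with no filter on low values and ran from 0 to 1 with one library left out, the 1 arising without KO replicate 1. The other alternatives gave 0. Under 13 alternatives, 0 of 130 member values changed direction and the smallest adjusted p of a member was 0.351. Dropping the trend, changing the filter or adding the replicate block leaves every log2 fold change as it was. Those settings could therefore not change a direction, and only the other normalizations and the libraries left out could. With one library left out the median of the members ran from -0.89 to -0.37 and the log2 fold changes from -1.76 to -0.75 for Top1mt, 0.17 to 0.69 for Egfr, -0.97 to -0.27 for Dusp4, -0.81 to -0.31 for Dusp6, -1.01 to -0.36 for Spry1, -1.24 to -0.46 for Spry2, -1.14 to -0.42 for Spry4, -0.71 to -0.33 for Spred1, -0.77 to -0.072 for Spred2 (the last without KO replicate 2), -1.37 to -1.02 for Etv4 and -0.66 to -0.21 for Etv5. Members at an unadjusted p under 0.05 numbered 3 with quantile normalization and 9 without KO replicate 1, and 7 when KO replicate 1 and WT replicate 2 were both left out, a setting chosen after seeing the data. A filter at the median left 590 genes at that level, from fewer genes tested. The replicate block gave 0 genes past the threshold and 1 member at an unadjusted p under 0.05, which was Dusp4 (0.041 by limma), while Etv4, the 1 member without the block, stood at 0.056. Deviations from the group mean correlated by -0.12, -0.076 and 0.052 between WT and KO libraries of number 1, 2 and 3, and a shared number was not taken as a pairing. The causes were not tested.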
